A study of Mus musculus with 30 samples.

Results

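The genes described here are Tlr1, Tlr2, Tlr4, Tlr6, Tlr7, Tlr9, Tlr13, Cd14, Myd88 and Irak4, 10 genes of Toll-like receptor recognition and its first signalling steps. They were found by symbol: the Ensembl identifiers of the count table were matched to mouse symbols in the GENCODE M21 annotation. All 10 were found among the 54532 genes of the table, each had a count in all 30 libraries, and all 10 were among the 12393 genes that passed the filter on low counts. The cells were mouse bone marrow cultures made into dendritic cells with the cytokine GM-CSF, either Nlrx1-deficient (KO) or wild type (WT). Nlrx1 encodes a mitochondrial protein of the NOD-like receptor family. After 6 days of culture, 500000 cells per well received 500000 viable conidia (spores) of the mould Aspergillus fumigatus, isolate AF29, and were lysed at 3, 6, 9 or 12 h, while the 0 h cells were lysed before challenge. There are 3 libraries for each genotype at each time, 10 groups in all. Strain, age, sex and the deleted part of Nlrx1 are not given in the labels, and whether libraries of 1 group stem from different animals or cultures is also not stated, so the p-values reflect library-to-library spread alone, which may be technical. Challenge and time in the well cannot be told apart, because the untreated libraries are all from 0 h.

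Toll-like receptors are membrane proteins that bind conserved molecules of microbes on the outside of the cell or inside endosomes. TLR2 works in pairs with TLR1 or TLR6 and reads lipoproteins and cell wall components, TLR4 reads lipopolysaccharide with MD-2 and is loaded by CD14, and TLR7, TLR9 and TLR13 read nucleic acids in endosomes. The receptors named here hand their signal to the adaptor MyD88, which gathers the kinase IRAK4 and further IRAK kinases, and the relay ends in NF-kappaB and interferon regulatory factors. In dendritic cells this pathway links recognition of microbes, fungi included, to cytokine release and maturation.

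Library totals ran from 1722384 to 3509429 counts, so the genes of low level below rest on few reads. Levels are given as CPM (counts scaled to a common library total after TMM normalisation), and changes as log2 fold changes ± standard error from edgeR's quasi-likelihood test, with p-values adjusted by Benjamini-Hochberg over all 12393 genes and a threshold of 0.05. Nlrx1 itself was at 2.49 ± 1.75 CPM in the KO libraries and at 9.32 ± 2.93 CPM in the WT libraries (SD, n = 15 each), a log2 change of -1.87 ± 0.28 over the times (edgeR adjusted p = 1.71e-05). At single times it was called lower in KO at 0 and 9 h, and not at 3, 6 or 12 h (edgeR adjusted p = 0.128, 0.114 and 0.485). The highest KO library, at 5.68 CPM, lay above the lowest WT library, at 5.26 CPM. The dendritic cell gene Itgax stood at 1164 to 1409 CPM in every library, and the macrophage gene Csf1r at 516 to 788 CPM, while the dendritic cell genes Cd209a and Flt3 were at 0 in 23 and 17 of the 30 libraries. B cell markers summed to at most 11.7 CPM and T and NK cell markers to at most 5.54 CPM in any library, with Gzma at 0 throughout, and the erythroid markers summed to at most 3.05 CPM, with Hba-a2 at 0 throughout. The share of counts in small RNA genes (snoRNA, snRNA, scaRNA, miRNA and misc_RNA genes of the annotation) was 3.07% to 4.28% in KO libraries and 3.82% to 6.80% in WT libraries. At 12 h it averaged 3.33% ± 0.177 in KO and 3.92% ± 0.092 in WT cells, against 3.42% ± 0.077 in KO and 5.82% ± 0.303 in WT cells at 0 h (SD, n = 3 each).

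The 10 genes differed widely in level per length of transcript. Over all 30 libraries the median level per kilobase of annotated exon was highest for the co-receptor gene Cd14 at 48.5 CPM per kb, followed by the RNA receptor gene Tlr13 at 42.3, Tlr2 at 24.0 and Myd88 at 20.1 CPM per kb. Tlr7 followed at 14.98 CPM per kb, Irak4 at 5.97, Tlr4 at 4.58, Tlr6 at 3.56, Tlr1 at 2.99 and Tlr9 at 1.18 CPM per kb. Tlr1 and Tlr6, the partners of Tlr2, were both far below it per length. The order was firm at some steps and not at others: Tlr7 exceeded Irak4 in 29 of 30 libraries and Tlr1 exceeded Tlr9 in 29 of 30. Tlr4 exceeded Irak4 in the mean of 7 of the 10 groups although its median was lower, and Tlr2 exceeded Myd88 in only 19 libraries. These ranks use the union of annotated exons as length, and the exons actually used in these cells were not tested.

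At 12 h of challenge Tlr2 and Cd14 rose in both genotypes and Myd88 fell in both, while the fall of Tlr4 passed the test in KO cells only. The Tlr4 change in WT cells was -1.91 ± 0.85 (edgeR adjusted p = 0.134), and its difference between the genotypes did not pass (edgeR adjusted p = 0.907). The Tlr4 call and both Myd88 calls ended without certain single libraries. In KO cells 4 of the 10 genes passed the test (2 higher, 2 lower), where 14.7% of all genes tested did (8.13% higher and 6.58% lower). In WT cells 3 of the 10 passed (2 higher, 1 lower), where 18.1% of all genes tested did (9.64% higher and 8.47% lower). The median log2 change of the 10 genes at 12 h was 0.04 in KO and 0.16 in WT cells, beside -0.01 and 0.00 over all genes tested. Markers of cell types moved at 12 h too. Of the macrophage markers tested 3 were higher and 5 lower of 11 in KO cells, and 2 were higher and 6 lower in WT cells. The macrophage markers summed to 2147 to 2360 CPM in KO and 2633 to 2710 CPM in WT libraries at 12 h, against 2498 to 2730 CPM in KO and 3428 to 3607 CPM in WT libraries at 0 h. Of the dendritic cell markers 2 of 10 tested were lower in KO cells, and 4 were lower and 1 higher in WT cells, and of the neutrophil markers 1 of 8 was lower in KO and 2 of 8 in WT cells. The part of these markers in the changes of the 10 genes was not tested. The comparisons of the 4 times in a genotype share its 0 h libraries. Before 12 h none of the 10 passed in either genotype with edgeR. At an unadjusted p under 0.05 the counts at 3, 6 and 9 h were 0, 1 and 1 of 10 in KO cells and 3, 1 and 5 of 10 in WT cells, and DESeq2 also called 0 at each of these times. Over all genes 1.22%, 5.91% and 10.9% were called at 3, 6 and 9 h in KO cells and 1.02%, 5.96% and 10.4% in WT cells.

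**Figure D1:**
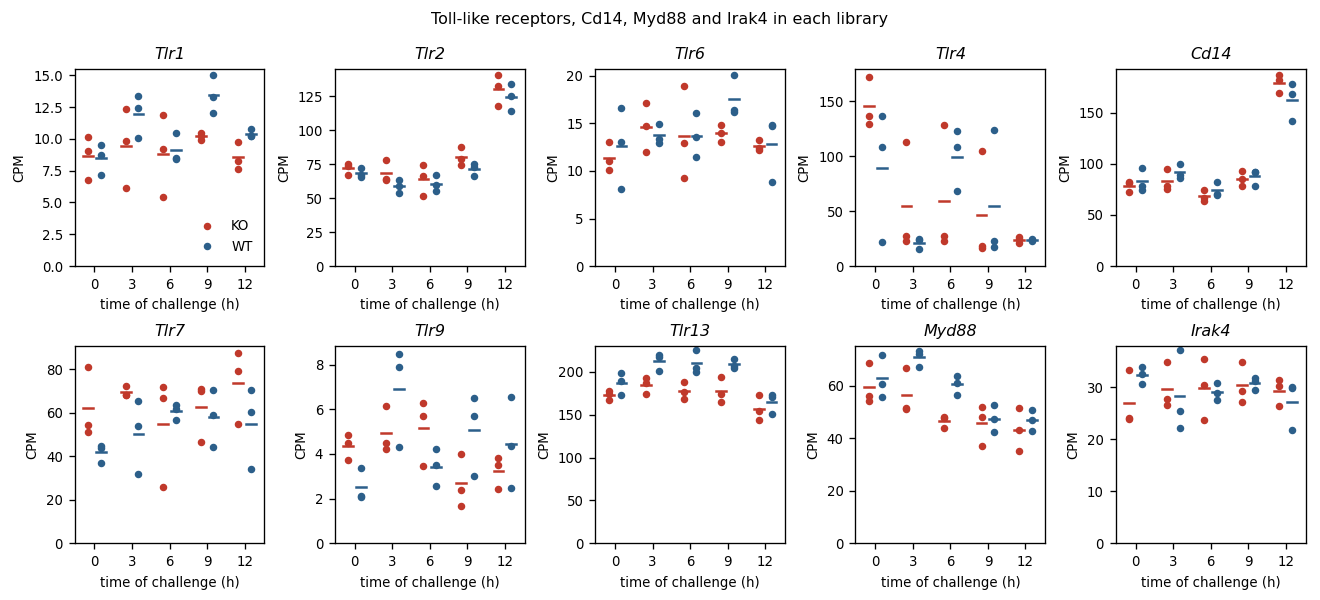
CPM of each gene in each library against time of challenge, KO points (red) left of WT points (blue) at each time, with a bar at the mean of 3 libraries. Tlr2 and Cd14 stand apart at 12 h in both genotypes, Myd88 is lower at 12 h than at 0 h, and Tlr4 takes high and low values within the same group.

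Tlr2 (ENSMUSG00000027995, chromosome 3, 83836272 to 83841767 on the minus strand in GRCm38) encodes the shared chain of the lipoprotein receptors. At 12 h it measured 118, 133 and 141 CPM in the 3 KO libraries and 134, 114 and 125 CPM in the 3 WT libraries. Before challenge it measured 74.1, 75.3 and 67.1 CPM in KO and 72.0, 65.9 and 67.2 CPM in WT libraries. The groups did not overlap, and every 12 h library was also above every 9 h library of its genotype. The log2 change was 0.85 ± 0.11 in KO cells (edgeR adjusted p = 1.15e-06) and 0.86 ± 0.11 in WT cells (edgeR adjusted p = 7.97e-07). Up to 9 h the means moved little: they were 72.2 ± 4.42, 68.5 ± 8.18, 64.2 ± 11.4 and 80.3 ± 6.69 CPM at 0, 3, 6 and 9 h in KO cells, and 68.4 ± 3.25, 58.9 ± 4.95, 60.7 ± 5.93 and 71.4 ± 4.46 CPM in WT cells (SD, n = 3 each). The difference between the genotypes in the change to 12 h was -0.01 ± 0.15 (edgeR adjusted p = 0.998).

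The promoter of Tlr2 is shown because this is the receptor gene that rose and because the window from 250 bases before to 50 bases after its start holds 2 matches to a motif of the NF-kappaB type, GGGA followed by any 4 bases and CC. Such a match, read on both strands, occurs in 20.7% of the 32851 promoters of the RefSeq table (GRCm38.p6), and 2 or more matches in 3.66%. Capitals mark the matches, which begin 172 and 8 bases before the start site and do not overlap.
Tlr2 promoter, chr3:83841559-83841858, minus strand: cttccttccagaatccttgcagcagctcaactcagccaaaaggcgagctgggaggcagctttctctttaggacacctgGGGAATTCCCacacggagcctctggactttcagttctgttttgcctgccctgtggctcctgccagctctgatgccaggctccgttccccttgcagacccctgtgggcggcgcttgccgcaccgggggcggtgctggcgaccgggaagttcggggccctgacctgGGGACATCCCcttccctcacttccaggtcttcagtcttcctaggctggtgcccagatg
The same table holds promoters for 7 of the 10 genes, with Tlr4, Tlr7 and Cd14 not among them. None of the promoters of Tlr1, Tlr6, Tlr9, Tlr13, Myd88 and Irak4 held this motif in the window. A match is a run of letters and not a measured binding site.

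Tlr1 and Tlr6, whose products pair with TLR2, did not pass the test at any time. Tlr1 (ENSMUSG00000044827, chromosome 5, 64924679 to 64933563, minus strand) had 13 to 50 counts per library and measured 8.28, 7.65 and 9.78 CPM in KO and 10.8, 10.2 and 10.2 CPM in WT libraries at 12 h. In KO cells it measured 10.3, 10.5 and 9.91 CPM at 9 h against 9.01, 6.75 and 10.2 CPM at 0 h, a change of 0.25 ± 0.24 (edgeR adjusted p = 0.616). In WT cells it measured 12.1, 13.3 and 15.03 CPM at 9 h against 9.53, 7.13 and 8.71 CPM at 0 h, a change of 0.66 ± 0.23 (edgeR adjusted p = 0.0668). The KO groups overlapped, and the WT groups did not, but the difference of these changes did not pass (-0.41 ± 0.34, edgeR adjusted p = 0.941). Tlr6 (ENSMUSG00000051498, chromosome 5, 64952031 to 64960097, minus strand) had 16 to 67 counts and changed at 12 h by 0.15 ± 0.25 in KO cells (edgeR adjusted p = 0.769) and by 0.02 ± 0.24 in WT cells (edgeR adjusted p = 0.964). At this depth even changes well above these standard errors could go uncalled, as that of Tlr1 in WT cells at 9 h did.

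Tlr1 and Tlr6 lie side by side and share sequence, so that reads from one can be counted to the other. Of the distinct 50-base words in the annotated transcripts, 454 were shared between them, 13.6% of the words of Tlr1 and 12.3% of those of Tlr6. The longest identical run, shown because reads within it cannot be told apart, has 229 bases and lies in the coding part of both genes. It is at chr5:64925537-64925765 in Tlr1 and chr5:64953828-64954056 in Tlr6, both minus strand in GRCm38.
Run shared by Tlr1 and Tlr6: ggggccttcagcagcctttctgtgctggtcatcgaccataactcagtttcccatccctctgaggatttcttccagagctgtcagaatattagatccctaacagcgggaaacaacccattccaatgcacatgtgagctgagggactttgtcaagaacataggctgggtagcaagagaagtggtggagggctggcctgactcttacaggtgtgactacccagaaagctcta
The sources used here do not say how such reads were counted. Tlr2, Tlr7, Tlr9, Tlr13 and Cd14 shared no 50-base word with another gene.

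Cd14 (ENSMUSG00000051439, chromosome 18, 36725067 to 36726798, minus strand) encodes the co-receptor that carries ligands to TLR4 and TLR2, and it had the largest rise of the 10 genes at 12 h. At 12 h it measured 169, 187 and 182 CPM in KO and 178, 142 and 169 CPM in WT libraries. At 0 h it measured 72.1, 82.1 and 80.8 CPM in KO and 95.7, 78.5 and 74.7 CPM in WT libraries. The groups did not overlap in either genotype, and every 12 h library lay above every 9 h library. The log2 change was 1.19 ± 0.11 in KO cells (edgeR adjusted p = 2.79e-09) and 0.97 ± 0.10 in WT cells (edgeR adjusted p = 9.29e-08), and its difference between the genotypes was 0.22 ± 0.15 (edgeR adjusted p = 0.616). As for Tlr2, the level before 12 h stayed close to that at 0 h, with means of 83.0 ± 10.1, 68.3 ± 5.12 and 85.7 ± 7.64 CPM at 3, 6 and 9 h in KO cells and 91.7 ± 7.58, 74.5 ± 6.92 and 87.7 ± 7.64 CPM in WT cells (SD, n = 3 each). The calls of Tlr2 and Cd14 at 12 h held in both genotypes in every fit run, among them those without any 1 library and one with the small RNA share as a covariate, which was chosen after seeing the data (WT edgeR adjusted p = 0.0184 for Tlr2 and 0.0401 for Cd14).

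Tlr4 (ENSMUSG00000039005, chromosome 4, 66827584 to 66930284, plus strand), the lipopolysaccharide receptor gene, took 2 separate levels across libraries. In 12 libraries it lay between 68.1 and 172 CPM and in the other 18 between 15.7 and 27.5 CPM, with none between. Both levels occurred within single groups. At 3, 6 and 9 h 1 of the 3 KO libraries was at the upper level each time (113, 129 and 105 CPM), beside libraries at 16.6 to 27.5 CPM. In WT cells 2 of 3 libraries were at the upper level at 0 h (137 and 108 CPM, beside 21.8 CPM), none at 3 h, all 3 at 6 h (123, 108 and 68.1 CPM) and 1 of 3 at 9 h (124 CPM, beside 17.2 and 22.5 CPM). At 12 h all libraries were at the lower level, with 24.4, 21.1 and 26.4 CPM in KO and 24.1, 24.4 and 22.9 CPM in WT cells.

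Against 0 h, where the 3 KO libraries measured 172, 129.7 and 137 CPM, Tlr4 fell at 12 h in KO cells by 2.62 ± 0.87 on the log2 scale (edgeR adjusted p = 0.0465). Leaving out any 1 of these 6 libraries ended the call (edgeR adjusted p = 0.0803 to 0.135), and so did testing without a count filter (0.159). The other 7 of 14 alternatives kept it, DESeq2 and a fit of the compared libraries alone among them (lowest adjusted p of these edgeR and DESeq2 fits 4.13e-06). The main fit estimates 1 spread per gene over all 10 groups, those with both levels of Tlr4 included. In WT cells the change was -1.91 ± 0.85 (edgeR adjusted p = 0.134), and its difference between the genotypes was -0.71 ± 1.23 (edgeR adjusted p = 0.907). The authors' deposited table for KO cells lists Tlr4 at -2.62 with an adjusted p of 1.08e-35, while their deposited WT table at 12 h does not list it. The submitters' notes name DESeq2 without a role, so the authors' adjusted p may come from another method and other libraries than the edgeR value here. The spread between libraries of a group, as a coefficient of variation of CPM, was 67.1% for Tlr4, wider than for 99.8% of the 3396 genes within 2-fold of its level, whose median was 10.4%. Its share of words with any other gene was small, 12 of 5551 with the transcript Gm37744 on the opposite strand, and what sets the 2 levels was not tested. Ly96, which encodes the TLR4 partner MD-2, was at most 8.82 CPM in any library and did not pass at 12 h (edgeR adjusted p = 0.923 in KO and 0.988 in WT cells). It fell at 6 h in KO cells, to 1.15, 3.31 and 0 CPM against 4.50, 6.00 and 6.18 CPM at 0 h (-1.91 ± 0.58, edgeR adjusted p = 0.0479), a call that ended under 10 of 14 alternatives, among them leaving out any 1 of the 3 KO 0 h libraries or KO 6 h replicate 1 or 3. Lbp, the plasma protein that delivers lipopolysaccharide to CD14, was below the filter.

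**Figure D2:**
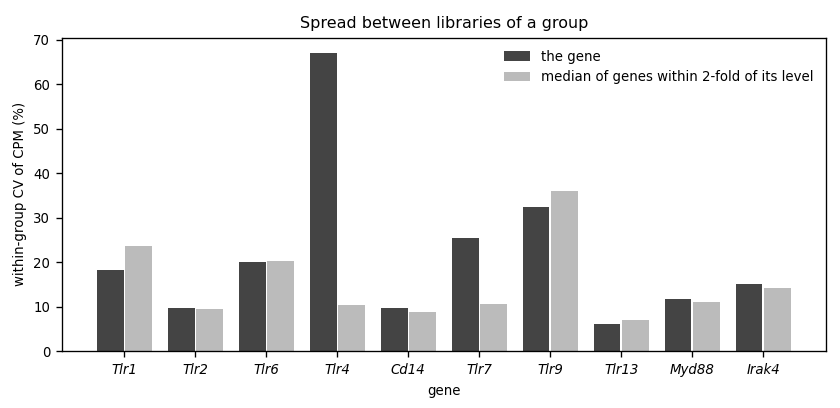
Coefficient of variation of CPM between the 3 libraries of a group, pooled over 10 groups, for each gene (dark bars) and the median over genes within 2-fold of its level (light bars), in percent. Tlr4 at 67.1% and Tlr7 at 25.4% exceed their comparators of 10.4% and 10.6%, and the other 8 genes lie near or below theirs.

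Of the endosomal receptors among the 10 genes (Tlr7, Tlr9 and Tlr13) none passed at any time against 0 h. Tlr13 (ENSMUSG00000033777, chromosome X, 106143204 to 106160493), the receptor for bacterial ribosomal RNA in the mouse, had 292 to 681 counts per library and had the lowest coefficient of variation of the 10 genes between libraries of a group, 6.13%. At 12 h it averaged 157 ± 14.5 CPM in KO and 165 ± 12.0 CPM in WT cells, against 173 ± 5.31 CPM in KO and 187 ± 13.4 CPM in WT cells at 0 h (SD, n = 3 each). The log2 changes were -0.14 ± 0.07 in KO (edgeR adjusted p = 0.239) and -0.18 ± 0.07 in WT cells (edgeR adjusted p = 0.0899).

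Tlr7 (ENSMUSG00000044583, chromosome X, 167304929 to 167330558), a receptor for single-stranded RNA, varied from 26.0 to 87.7 CPM and its spread of 25.4% exceeded that of 95.8% of genes near its level. At 12 h it measured 79.3, 87.7 and 54.8 CPM in KO and 60.6, 34.0 and 70.4 CPM in WT libraries, against 51.1, 81.3 and 54.3 CPM in KO and 43.8, 44.9 and 36.9 CPM in WT libraries at 0 h. The groups overlapped in both genotypes, and the changes were 0.25 ± 0.30 in KO (edgeR adjusted p = 0.675) and 0.38 ± 0.31 in WT cells (edgeR adjusted p = 0.46). Tlr9 (ENSMUSG00000045322, chromosome 9, 106222598 to 106226883), the receptor for unmethylated DNA, had only 4 to 21 counts per library. In KO cells it measured 4.48, 4.23 and 6.15 CPM at 3 h against 4.50, 3.75 and 4.86 CPM at 0 h, overlapping groups with a change of 0.18 ± 0.38 (edgeR adjusted p = 0.972). In WT cells it measured 8.49, 4.32 and 7.91 CPM at 3 h against 2.12, 3.36 and 2.07 CPM at 0 h, groups that did not overlap, for a change of 1.47 ± 0.40 (edgeR adjusted p = 0.0818). The difference of these changes did not pass (edgeR adjusted p = 0.908).

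Myd88 (ENSMUSG00000032508, chromosome 9, 119335934 to 119341411, minus strand), the adaptor gene, fell at 12 h in both genotypes. It measured 51.4, 43.0 and 35.2 CPM in KO and 47.0, 50.8 and 42.6 CPM in WT libraries at 12 h, against 54.1, 56.2 and 68.5 CPM in KO and 55.8, 71.7 and 60.6 CPM in WT libraries at 0 h. The groups did not overlap in either genotype. The log2 change was -0.46 ± 0.14 in KO (edgeR adjusted p = 0.025) and -0.41 ± 0.13 in WT cells (edgeR adjusted p = 0.0309). Both calls lay near the threshold and ended without certain single libraries, though some of these omissions left the change as large or larger. In KO cells the call ended without KO 0 h replicate 3 (-0.35, edgeR adjusted p = 0.15) or KO 12 h replicate 2 (-0.46, 0.0658) or 3 (-0.34, 0.147). It also ended without a count filter (0.0574) and in a fit of the compared libraries alone (0.101). In WT cells it ended without WT 0 h replicate 2 (-0.30, edgeR adjusted p = 0.191) or 3 (-0.43, 0.0567) or WT 12 h replicate 1 (-0.43, 0.0692) or 3 (-0.35, 0.121), and also without a count filter (-0.42, 0.0962), under DESeq2 (-0.40, 0.0621) and with the small RNA share as a covariate (-0.56, 0.538). Lower means were present from 6 h in KO cells, at 46.5 ± 2.30 CPM at 6 h and 45.8 ± 7.69 CPM at 9 h, and from 9 h in WT cells, at 47.4 ± 5.22 CPM, without passing the test.

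The promoter of Myd88 is shown for comparison with that of Tlr2, since the 2 genes moved in opposite directions. It held no match to the NF-kappaB type motif and 1 match to the letters of an interferon-stimulated response element, GAAA, any 2 bases and GAAA, which 3.44% of promoters hold on either strand. The match, in capitals, begins 40 bases before the start site. Tlr6, which did not pass the test, held matches to the same letters beginning 116 and 110 bases before a start site. Motifs of the transcription factors AP-1 and PU.1 were also searched, with matches in Tlr9 (both) and Tlr1 (PU.1) and none in Tlr2 or Myd88. Cd14 had no promoter in the set, and the part of any motif in the changes was not tested.
Myd88 promoter, chr9:119339969-119340268, minus strand: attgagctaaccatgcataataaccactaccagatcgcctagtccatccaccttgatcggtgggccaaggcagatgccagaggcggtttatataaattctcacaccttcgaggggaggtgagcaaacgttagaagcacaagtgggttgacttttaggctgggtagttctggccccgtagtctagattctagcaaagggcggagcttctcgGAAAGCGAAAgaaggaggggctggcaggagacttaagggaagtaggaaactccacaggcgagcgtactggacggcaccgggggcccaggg
Myd88 overlaps Acaa1a, an enzyme gene of fatty acid oxidation on the opposite strand, and 7.42% of its 50-base words were shared with it. Acaa1a did not pass at 12 h (-0.13 ± 0.14 in KO, edgeR adjusted p = 0.592, and -0.10 ± 0.13 in WT cells, edgeR adjusted p = 0.693). The libraries were made with a strand-specific kit, but the sources used here do not say whether the counting used strand.

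Irak4 (ENSMUSG00000059883, chromosome 15, 94543643 to 94581815, plus strand), the first kinase recruited by MyD88, did not pass in any comparison. Its group means ran from 27.1 to 30.5 CPM in KO cells and from 27.2 to 32.4 CPM in WT cells over the 5 times. At 12 h the change was 0.10 ± 0.18 in KO (edgeR adjusted p = 0.787) and -0.24 ± 0.17 in WT cells (edgeR adjusted p = 0.374). Irak4 overlaps Twf1 on the opposite strand, with 5.11% of its words shared, and Twf1 did not pass at 12 h either (edgeR adjusted p = 0.205 in KO and 0.27 in WT cells).

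**Figure D3:**
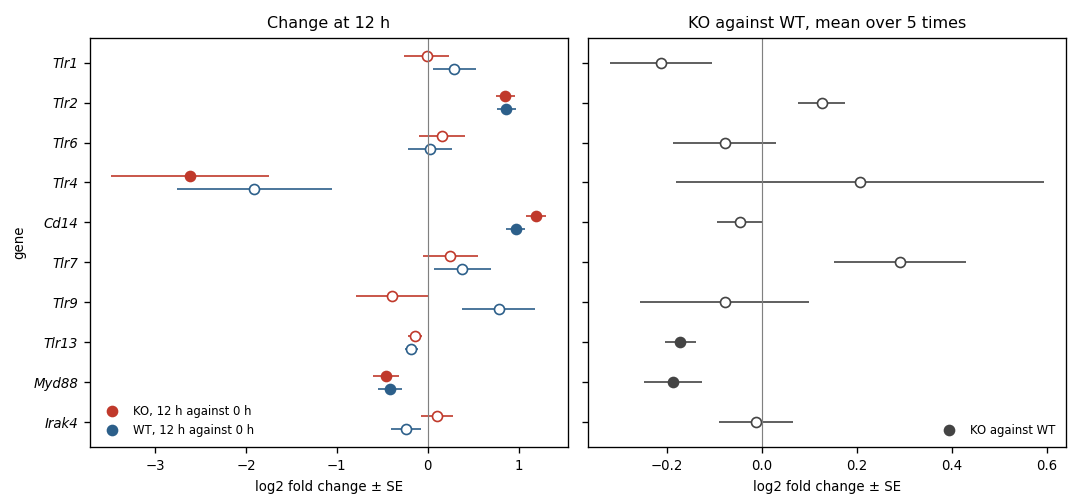
Left, log2 fold change ± SE of each gene at 12 h against 0 h in KO (red, upper) and WT cells (blue, lower), and right, log2 fold change ± SE of KO against WT averaged over 5 times. Filled points passed the test at an adjusted p of 0.05: Tlr2, Cd14 and Myd88 in both genotypes and Tlr4 in KO cells on the left, Tlr13 and Myd88 on the right.

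Between the genotypes, none of the 10 genes passed at any single time with edgeR, where 5.02%, 6.92%, 5.78%, 5.06% and 1.9% of all genes tested were called at 0, 3, 6, 9 and 12 h. At an unadjusted p under 0.05 the counts were 0, 2, 2, 2 and 0 of 10, and DESeq2 also called none. Averaged over the 5 times 2 of the 10 genes were lower in KO, Tlr13 and Myd88, where 24.9% of all genes tested were called (12.2% lower). Tlr13 differed by -0.17 ± 0.03 on the log2 scale (edgeR adjusted p = 0.000287), and its KO mean was below its WT mean at all 5 times. Its KO libraries measured 144, 174 and 194 CPM (lowest, median and highest of 15) and its WT libraries 151, 202 and 226 CPM. At 3 h the KO values of 193, 187 and 174 CPM all lay below the WT values of 202, 219 and 218 CPM, and KO and WT did not overlap at 6 and 9 h either, while they did at 0 and 12 h. The smallest adjusted p for Tlr13 at a single time was 0.0536 at 6 h (-0.24 ± 0.07, edgeR), and 3 of 14 alternative fits brought it under the threshold (lowest 0.0399, highest of all 0.943).

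Myd88 differed by -0.19 ± 0.06 on the log2 scale over the times (edgeR adjusted p = 0.0253), with KO libraries at 35.2, 51.2 and 68.5 CPM and WT libraries at 42.2, 56.5 and 73.2 CPM (lowest, median and highest of 15). KO and WT did not overlap at 3 h (51.4, 51.1 and 66.8 against 73.2, 71.9 and 67.2 CPM) and 6 h (47.9, 47.8 and 43.9 against 61.1, 56.5 and 63.8 CPM). Such separation was not limited to Tlr13 and Myd88. KO and WT also did not overlap for Tlr1 at 9 and 12 h, Tlr6 at 9 h, Tlr7 at 0 and 3 h and Tlr9 at 0 h. The share of all genes that separate in this way was not computed. The other 8 genes did not pass, with log2 differences from -0.21 ± 0.11 for Tlr1 (edgeR adjusted p = 0.157) to 0.29 ± 0.14 for Tlr7 (edgeR adjusted p = 0.133). Tlr2 had the next smallest adjusted p, at 0.13 ± 0.05 (edgeR adjusted p = 0.0623).

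Markers of cell types differed between the genotypes over the times as well, where 12.6% of all genes tested were called higher and 12.2% lower in KO. Of the macrophage markers 9 of 11 tested were lower in KO and 1 was higher, with the 12 genes summing to 2147 to 2730 CPM in KO and 2633 to 3607 CPM in WT libraries. Of the neutrophil markers 6 of 8 tested were lower in KO, with sums of 378 to 788 CPM in KO and 590 to 1211 CPM in WT libraries, although Ly6g never exceeded 2.93 CPM. Of the dendritic cell markers 7 of 10 tested were higher in KO, with sums of 3720 to 4288 CPM in KO and 2976 to 4178 CPM in WT libraries. The part of these markers in the differences of Tlr13 and Myd88 was not tested, and in bulk RNA fewer cells of a type and less RNA per cell cannot be told apart. When each library's small RNA share entered the fit as a covariate, neither gene passed (-0.34, edgeR adjusted p = 0.997 for Tlr13, and -0.36, 1 for Myd88), and only 4 of all genes were called between the genotypes, so genotype and small RNA share cannot be told apart at this level of difference.

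No difference between the genotypes in the response to challenge passed the test for any of the 10 genes with edgeR. The test of genotype by time called 0 of 10 (smallest adjusted p 0.323, for Tlr9) where 0.888% of all genes were called, and DESeq2 also called 0. At an unadjusted p under 0.05 it picked Tlr9 alone. For the change to 12 h alone 0 of 10 were called, and 0 at an unadjusted p under 0.05, where 0.726% of all genes were called. For the changes to 3, 6 and 9 h 0 of 10 were called, and 1, 0 and 1 at an unadjusted p under 0.05, where 0%, 0% and 0.105% of all genes were called, and DESeq2 called none of the 10.

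The rest of the pathway was followed through 72 further genes in 7 lists, of which 65 passed the filter. At 12 h 18 of the 65 were higher and 6 lower in KO cells, where 8.13% of all genes were called higher and 6.58% lower (14.7% together). In WT cells 15 were higher and 6 lower, where 9.64% of all genes were called higher and 8.47% lower (18.1% together). The same shares stand beside the counts of the single lists at 12 h below. Of the genes called, 13 were higher in both genotypes and 3 lower in both, and none was called in opposite directions. The median log2 change over the 65 genes was 0.06 in KO and 0.06 in WT cells. Between the genotypes 7 were higher and 8 lower in KO over the times, a share near the 24.9% called over all genes (12.6% higher and 12.2% lower). With the small RNA share as a covariate all 24 calls held in KO cells, 5 of the 21 in WT cells (Ctsk, Traf3, Tank, Tnfaip3 and Atf3) and none of the 15 between the genotypes.

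**Figure D4:**
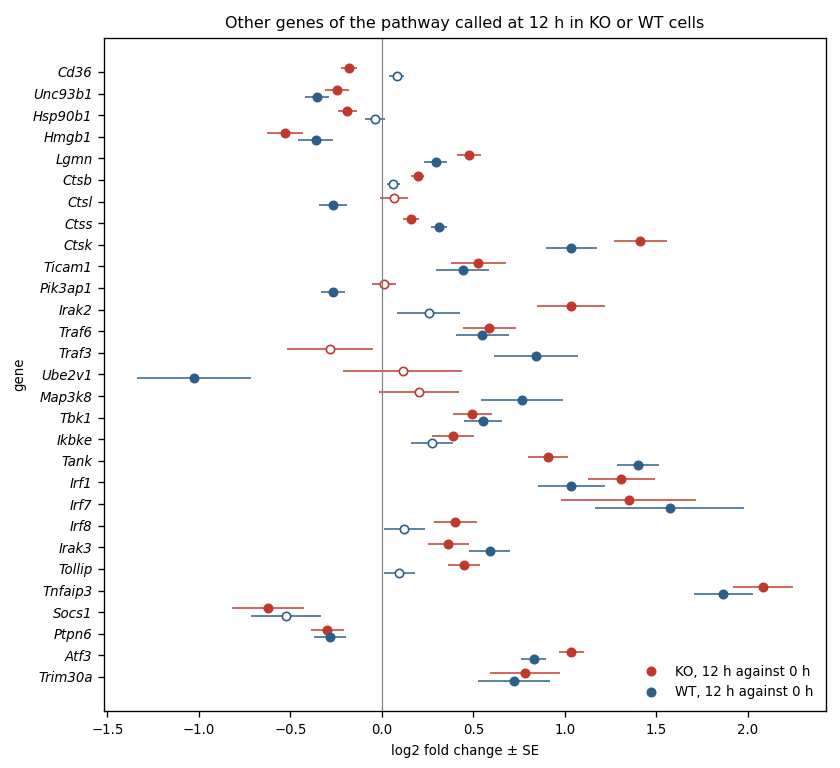
Log2 fold change ± SE at 12 h against 0 h in KO (red, upper) and WT cells (blue, lower) for the pathway genes called in either genotype, in the order of their lists. Filled points passed the test. Tnfaip3 has the largest rise in both genotypes, and Unc93b1, Hmgb1 and Ptpn6 lie below 0 in both.

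Among the other Toll-like receptors only Tlr3 and Tlr8 passed the filter, and Tlr5, Tlr11 and Tlr12 had at most 9 counts in any library. Tlr8, a gene of the endosomal receptor group, was lower at 3, 6 and 9 h in KO cells and at 6 and 9 h in WT cells than at 0 h. It measured 53.1, 52.5 and 50.8 CPM at 0 h, 31.8, 37.0 and 25.0 CPM at 3 h, 23.1, 28.4 and 23.0 CPM at 6 h, 34.5, 28.6 and 34.3 CPM at 9 h and 41.0, 41.1 and 39.1 CPM at 12 h in KO cells. In WT cells it measured 35.3, 33.6 and 38.6 CPM at 0 h, 25.5, 22.3 and 24.5 CPM at 6 h and 31.8, 39.3 and 31.1 CPM at 12 h. The 6 h change was -1.07 ± 0.14 in KO cells (edgeR adjusted p = 6.1e-06) and -0.57 ± 0.14 in WT cells (edgeR adjusted p = 0.0103), and at 12 h it was -0.36 ± 0.13 in KO (edgeR adjusted p = 0.0501) and -0.07 ± 0.13 in WT cells (edgeR adjusted p = 0.775), neither past the threshold. The WT call at 6 h ended without WT 6 h replicate 2, without a count filter and with the small RNA share as a covariate (highest edgeR adjusted p 0.145). The KO call at 3 h (-0.73 ± 0.13, edgeR adjusted p = 0.00149) ended in a fit of the compared libraries alone (0.0782), and the WT call at 9 h under 9 of 14 alternatives. Before challenge Tlr8 was higher in KO by 0.54 ± 0.13 (edgeR adjusted p = 0.00873), a call that ended without WT 0 h replicate 2, without a count filter and with the small RNA share as a covariate.

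Of the genes for co-receptors and receptor trafficking 4 of 19 tested were higher and 4 lower at 12 h in KO cells, and 3 higher and 3 lower in WT cells. Unc93b1, the escort of the endosomal receptors, fell in both genotypes. It measured 395, 361 and 317 CPM in KO and 359, 351 and 352 CPM in WT libraries at 12 h, against 434, 389 and 451 CPM in KO and 444, 478 and 435 CPM in WT libraries at 0 h (-0.25 ± 0.06 in KO, edgeR adjusted p = 0.00963, and -0.35 ± 0.06 in WT cells, edgeR adjusted p = 0.000233). The Unc93b1 call in KO cells ended when only the compared libraries were fitted, and without KO 0 h replicate 3 or KO 12 h replicate 3 (highest 0.139). Of the 5 endosomal proteases Ctsk was higher by 1.41 ± 0.15 in KO and 1.04 ± 0.14 in WT cells, Lgmn by 0.48 ± 0.06 in KO and 0.30 ± 0.06 in WT cells, and Ctss by 0.16 ± 0.04 in KO and 0.31 ± 0.04 in WT cells. Ctsb rose in KO cells (0.20 ± 0.03, edgeR adjusted p = 0.000177) and did not pass in WT cells (0.06 ± 0.03, edgeR adjusted p = 0.234). Ctsl did not pass in KO cells (0.07 ± 0.08, edgeR adjusted p = 0.643) and fell in WT cells (-0.27 ± 0.08, edgeR adjusted p = 0.0143), a call that ended without WT 0 h replicate 2 or 3, in a fit of the compared libraries alone and with the small RNA share as a covariate. The difference between the genotypes in the change to 12 h did not pass for Ctsb or Ctsl. Of this list only Cd36 passed that test. The Ctss call in KO cells ended without KO 0 h replicate 1 or KO 12 h replicate 1, without a count filter and in a fit of the compared libraries alone. Over the times Ctsl, Ctsb and Lgmn were lower in KO, with log2 differences of -0.44 ± 0.03, -0.25 ± 0.02 and -0.31 ± 0.03 (edgeR adjusted p = 1.69e-10, 1.49e-12 and 3.82e-09). Ctss was higher in KO by 0.11 (edgeR adjusted p = 0.000127), as was the scavenger receptor gene Cd36 of the same list by 0.17 (edgeR adjusted p = 8.23e-08). All of these calls ended with the small RNA share as a covariate (edgeR adjusted p = 0.68 for Ctsl, 0.812 for Ctsb and 0.408 for Lgmn). Hmgb1, whose protein can act as an endogenous ligand, fell by 0.53 ± 0.10 in KO (edgeR adjusted p = 0.000327) and by 0.36 ± 0.10 in WT cells (edgeR adjusted p = 0.00943), where the call ended without WT 12 h replicate 1 or 2, in a fit of the compared libraries alone and with the small RNA share as a covariate.

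Among the other adaptors 1 of 4 tested was higher and none lower in KO cells at 12 h, and 1 was higher and 1 lower in WT cells. Ticam1, which encodes TRIF, the adaptor of the MyD88-independent branch, rose by 0.53 ± 0.15 in KO (edgeR adjusted p = 0.0161) and by 0.44 ± 0.15 in WT cells (edgeR adjusted p = 0.0355), the opposite direction to Myd88. The Ticam1 call ended under 4 of 14 alternatives in KO (highest edgeR adjusted p 0.101) and under 8 of 14 in WT cells (highest 0.888). In the relay of IRAK kinases, TRAF proteins and TAK1 2 of 13 were higher in KO cells and 3 higher and 1 lower in WT cells. Irak2 was at 51.4, 47.2 and 39.1 CPM at 12 h in KO libraries against 15.02, 24.7 and 26.9 CPM at 0 h (1.03 ± 0.19, edgeR adjusted p = 0.000214), and at 39.6, 44.0 and 40.9 CPM against 40.3, 33.6 and 29.9 CPM in WT libraries, where it did not pass. The difference of these changes in Irak2 was 0.78 ± 0.25 and did not pass (edgeR adjusted p = 0.172). Traf6, the ubiquitin ligase below the IRAK kinases, rose by 0.59 ± 0.15 in KO and 0.55 ± 0.14 in WT cells (edgeR adjusted p = 0.00572 and 0.00736), and the KO call ended without KO 12 h replicate 2 (0.0717).

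Of the 7 kinases and scaffolds of the IKK and TBK1 complexes 3 were higher in KO and 2 in WT cells at 12 h and none lower. Tank, a TBK1 scaffold, rose to 144, 119 and 150.2 CPM in KO and to 129.8, 130.0 and 111 CPM in WT libraries at 12 h, against 81.1, 70.1 and 68.9 CPM in KO and 49.1, 52.9 and 38.6 CPM in WT libraries at 0 h (0.91 ± 0.11 in KO and 1.40 ± 0.11 in WT cells, edgeR adjusted p = 7.82e-07 and 4.83e-10). Of the interferon regulatory factors 3 of 5 rose in KO and 2 of 5 in WT cells, with Irf1 at 1.31 ± 0.18 in KO and 1.04 ± 0.18 in WT cells. Of the negative regulators 5 of 15 tested were higher and 2 lower in KO cells, and 4 higher and 1 lower in WT cells. Tnfaip3, which encodes a ubiquitin-editing enzyme, rose to 391, 368 and 407 CPM in KO and 364, 298 and 319 CPM in WT libraries against 87.6, 86.2 and 101 CPM in KO and 103, 86.0 and 79.2 CPM in WT libraries (2.08 ± 0.16 in KO and 1.87 ± 0.16 in WT cells, edgeR adjusted p = 1.04e-09 and 5.37e-09). Irak3, the inhibitory kinase homologue, rose by 0.36 ± 0.11 in KO and 0.59 ± 0.11 in WT cells (edgeR adjusted p = 0.0265 and 0.000419). The Irak3 call in KO cells ended without any 1 of the 6 libraries and without a count filter (highest edgeR adjusted p 0.185), and the WT call ended with the small RNA share as a covariate. The phosphatase gene Ptpn6 fell by 0.30 ± 0.09 in KO and by 0.28 ± 0.09 in WT cells (edgeR adjusted p = 0.023 and 0.0218). The Ptpn6 call ended under 6 of 14 alternatives in KO (highest adjusted p 0.0909) and under 7 of 14 in WT cells (highest 0.947), DESeq2 among them in both and 3 single libraries in each: KO 0 h replicates 1 and 3 and KO 12 h replicate 3, and WT 0 h replicate 2 and WT 12 h replicates 2 and 3.

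The genes whose 10 group means of log2 CPM were most like those of the called genes were sought among 5872 genes with a mean of at least 20 CPM, as a description with no test. For Cd14 they were Nfkb2 (Pearson r = 0.986 over 10 groups), Junb (0.978) and Sdc4 (0.974). For Tlr2 they were Nfkbia (r = 0.973), Il1b (0.973) and Flrt3 (0.971). For Myd88 they were Gm13493 (r = 0.976), Rpl14-ps1 (0.962) and the ribosomal protein gene Rpl3 (0.96), and for Tlr4 Smurf2 (r = 0.945), Pfdn2 (0.889) and Rbbp5 (0.882). The groups share their libraries and their scaling across genes, and the 12 h groups carry much of the range for Cd14 and Tlr2. Some group means of Tlr4 average libraries at its upper and lower levels. The r values given are the highest of 5872 over only 10 groups, and no r for unrelated genes was computed beside them.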

How the data were processed

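RNA from 30 libraries (2 genotypes, 5 times, 3 libraries each) was made with a strand-specific mRNA kit, per the labels' protocols. The authors deposited raw counts per gene, and tables of their own comparisons with log2 fold changes and adjusted p-values. Per the submitters' processing notes, which give no roles, Trimmomatic 0.35, HISAT2, StringTie, DESeq2 and the build GRCm38 were used. The sources used here do not state the strand setting of the counting or its treatment of reads that match several genes. From the deposited counts, edgeR 4.0.16 in R 4.3.3 removed 42139 genes with its expression filter (minimum count 10), kept 12393 genes with 98.66% of counts, scaled libraries by TMM and fitted 1 robust quasi-likelihood model to all 30 libraries (20 residual degrees of freedom), with Benjamini-Hochberg adjustment over all genes and a threshold of 0.05. CPM used TMM-scaled totals, with a prior count of 2 for logs. DESeq2 1.42.0, other scalings and filters, a replicate block, fits of the compared libraries alone, each library left out, and the small RNA share as a covariate (added after the data were seen) were the alternatives. The procedure was tested on simulated counts drawn with 1 common spread for all genes. That test does not cover genes of wider spread, such as Tlr4 and Tlr7. All 10 genes are described in each family of comparisons. Other genes come from fixed pathway and marker lists. The genes and lists were chosen with earlier results of these data known. Library totals of 1722384 to 3509429 counts limit precision for genes with few counts.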

Additional observations from a re-analysis of the deposited data

Results flagged for a closer look

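Cd36, a scavenger receptor that works with TLR2 and TLR6, was the pathway gene whose change to 12 h differed between the genotypes by a direct test. It measured 1463, 1370.0 and 1461 CPM in KO and 1363, 1412 and 1439 CPM in WT libraries at 12 h, against 1520.0, 1734 and 1603 CPM in KO and 1338, 1311 and 1333 CPM in WT libraries at 0 h. Its log2 change was -0.18 ± 0.04 in KO (edgeR adjusted p = 0.00426) and 0.08 ± 0.04 in WT cells (edgeR adjusted p = 0.207), and the difference was -0.26 ± 0.06 (edgeR adjusted p = 0.0389). The call on the difference ended under 13 of 20 alternatives (highest adjusted p 0.476), among them the small RNA share as a covariate and leaving out any 1 of the WT 12 h libraries.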

How the results depend on the processing

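No call of the 10 genes reversed under any alternative. The calls of Tlr2 and Cd14 at 12 h held in both genotypes under all 14 alternatives. At 12 h in KO cells the 4 genes called became 2 without a count filter, and 2 to 3 with 1 library left out (2 without KO 0 h replicate 3 or KO 12 h replicate 2 or 3). In WT cells 1 gene in place of 0 was called at 6 h when only the compared libraries were fitted (Tlr7), and 1 in place of 0 at 9 h with upper quartile scaling or a minimum of 10 CPM in 3 libraries (Myd88). Leaving out 1 library gave 0 to 1 gene at 3 and 9 h in WT cells (Tlr9 without WT 3 h replicate 2 or WT 9 h replicate 1, Myd88 without WT 0 h replicate 1). With no filter on low counts Tlr13 made 1 gene in place of 0 between the genotypes at both 6 and 9 h, and leaving out 1 library gave 0 to 1 at both times (Tlr13 without KO 6 h replicate 2 or KO 9 h replicate 2). The mean difference of KO and WT called 2 genes, 2 to 3 with 1 library left out, and 0 with the small RNA share as a covariate. That covariate also lowered all genes called from 3082 to 4 between the genotypes and from 2245 to 212 at 12 h in WT cells, but only from 1823 to 1788 at 12 h in KO cells, and the cause was not tested. Without a count filter all genes called at 12 h were 1187 in KO and 1486 in WT cells. No pairing by replicate number was seen in the deviations of log2 CPM from the group means. For these, 135 pairs of libraries with the same number in different groups had a mean correlation of 0.004, and none was over 0.1. Whether the samples were paired is not stated in the labels, and these correlations cannot settle it. With the replicate block 1 gene in place of 0 was called between the genotypes at 6 h (Tlr13), and the 12 h counts stayed at 4 in KO and 3 in WT cells. Low counts limit Tlr1, Tlr6 and Tlr9.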
